A study of Mus musculus with 150 samples.

Results

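Gene expression in the forebrain of the inbred mouse strain DBA was set against the strains 129 and B6. The 23 arrays compared were chosen by strain and dissection alone, out of 150 arrays in all: 8 of DBA, 8 of 129 and 7 of B6, from 5 dissections of adult wild type inbred mice. DBA had 2 arrays of the hippocampal field CA1, 1 labelled CA3, 2 of motor cortex, 2 of entorhinal cortex and 1 of perirhinal cortex. Strain 129 had 2 each of CA1, CA3, entorhinal and perirhinal cortex, and B6 had 3 of CA1, 2 of CA3 and 2 of motor cortex. DBA could therefore be compared with both strains in the hippocampal fields, with 129 alone in entorhinal and perirhinal cortex, and with B6 alone in motor cortex. The labels give no treatment, age in days, sex or substrain. Codes in the array titles fall into 6 for DBA, 5 for 129 and 5 for B6. Of the DBA codes, 2 differ only in punctuation and were counted as different codes throughout. DBA CA1 replicate 2 and the array labelled CA3 share the first, entorhinal replicate 2 and perirhinal replicate 1 the second. Whether these 2 codes name the same mice is not stated. Nor is it stated whether a code stands for a single mouse or a pool, or whether arrays of a code share RNA or animals. The p-values therefore measure only the spread between these arrays. A perirhinal array labelled DBA held the same values as a hippocampal array labelled 129 at all 12488 probe sets, and both were left out.

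DBA, 129 and B6 (the C57BL/6 family) are among the oldest inbred mouse lines. Each carries its own fixed set of alleles, so any pair of them differs at a large number of genes. A fixed allele can change how much of a transcript is made, how it is spliced or how long it lasts, and it can also change the stretch of sequence that an array probe pairs with. An array measures the brightness of such a pairing, and a sequence difference under a probe and a difference in transcript amount cannot be told apart in these data. DBA mice are well known for their pale, "dilute" coat from a Myo5a allele, for seizure susceptibility and for avoiding alcohol, while B6 mice drink it readily. CA1 and CA3 hold the pyramidal cells through which the hippocampus sends its output, entorhinal and perirhinal cortex pass information to and from it, and motor cortex drives voluntary movement.

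Where a gene had more than 1 probe set, the one brightest on average over all arrays used stood for it. Values are intensities in arbitrary units, with everything under 10.43, the 20th percentile of all values, raised to that floor. Differences are on a log2 scale, DBA minus 129 or DBA minus B6, with their standard error (SE), from 1 limma model of the 23 arrays with terms for tissue and strain. A gene was called where its adjusted p-value was under 0.05 and its difference was at least 1.5-fold. In sample-level values below, 3 numbers in a row are the lowest, median and highest array of a strain. In dissected tissue, fewer cells of a type and less RNA per cell cannot be told apart.

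The deposited values stood at a common level on all arrays. Median intensities were 48.2 to 68.3 and 75th percentiles 175 to 181, and 14.0% to 22.3% of values lay at the floor. The ratio of the 3' to the 5' Gapdh probe set was 0.815 to 1.41. The DBA CA1 array numbered replicate 1 had the fewest values at the floor. After tissue and strain were taken out, its residual spread was 0.398 (SD, log2). Its correlation to its nearest array, the other DBA CA1 array, was 0.253 with only each gene's mean taken out.

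A pair of DBA arrays stood apart from the other 6 at a group of strain-differing genes: entorhinal replicate 2 and perirhinal replicate 1, which carry the same title code. At 35 of the 5342 genes tested, the other 6 DBA arrays lay wholly outside the range of all 15 arrays of 129 and B6. They lay above it at 9 and below it at 26. The pair lay within the range of 129 and B6 at 18 of those 35, and on the DBA side of that range at 11. The 35 genes were chosen on the other 6 arrays, so these counts are a description. The ranges make no allowance for tissue. The pair is entorhinal and perirhinal cortex, and of the other 6 arrays only entorhinal replicate 1 came from either. The part of tissue in this split was not tested. The labels place both arrays of the pair in DBA. Their code differs only in punctuation from that of DBA CA1 replicate 2 and the array labelled CA3, which are among the other 6. Whether they came from the same stock as the other 6 cannot be told from the labels or these values, and this doubt applies to each value over 8 DBA arrays. The pair holds the only DBA perirhinal array and 1 of the 2 DBA entorhinal arrays, so differences are given with all 8 DBA arrays and, where leaving the pair out changed the call of a named gene, with the other 6.

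Markers went against the label of the single DBA array labelled CA3. Bok, which is enriched in CA3, was at 236.9 in that array against 256.6 and 364.7 in DBA CA1. In 129 it was at 640.9 and 206.6 in CA3 against 113.8 and 127 in CA1. In B6 it was at 645.2 and 379.8 in CA3 against 134.7, 259.6 and 178.2 in CA1. The 4 CA3 markers on the arrays summed to 733.1 in the DBA array labelled CA3 and 905.6 and 1075 in DBA CA1. The CA1 markers summed to 1066 in the array labelled CA3 and 945 and 664 in DBA CA1. CA3 replicate 2 of 129 was also mixed: its CA3 markers summed to 734.2 and its CA1 markers to 1921. In 129 CA3 replicate 1 these sums were 1805 and 748.9. The CA3 sums of 129 CA1 were 523.5 and 480.9 and its CA1 sums 2417 and 2155. In B6, both CA3 arrays had higher CA3 sums (1647 and 1033) than the CA1 arrays (473.8 to 733.7). Without the DBA array labelled CA3 in the fit, the counts of called genes changed from those below. They became 105 for DBA minus 129, 118 for DBA minus B6 and 36 for genes apart from both strains.

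Of 5342 genes tested, 113 were called between DBA and 129 (2.12%): 64 were higher in DBA (1.2%) and 49 lower (0.917%). Between DBA and B6, 135 were called (2.53%), 53 higher in DBA (0.992%) and 82 lower (1.54%). Both comparisons use the same 8 DBA arrays, so their calls are not independent of each other. The 2 other strains also differed from one another at 101 genes (1.89%), with 26 higher in 129 (0.487%) and 75 lower (1.4%). The median difference over all tested genes was 0.01 for DBA minus 129 and 0.02 for DBA minus B6, but since the arrays stood at a common level this says nothing of a general shift. Most called differences were modest: the median was 0.79 among genes higher than in 129 and -0.89 among those lower, and 0.76 and -0.85 against B6. Without the DBA pair, 175 genes were called against 129 and 171 against B6. With the title code as a random block, 10 calls of named genes were lost: Grin2b, Nr3c1, Calb2 and Mag against 129 and Nnat, C1ql1, Bhlhe40, Ephx1, Mag and Mal against B6 (adjusted p = 0.0526 to 0.154).

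DBA differed from both strains in the same direction at 39 genes (0.73%), of which 9 were above both (0.168%) and 30 below both (0.562%). The count rests on 2 comparisons that share the DBA arrays and is a description. Without the pair it was 63. Against the mean of 129 and B6, 102 genes were called (1.91%), 38 higher (0.711%) and 64 lower (1.2%).

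**Figure D1:**
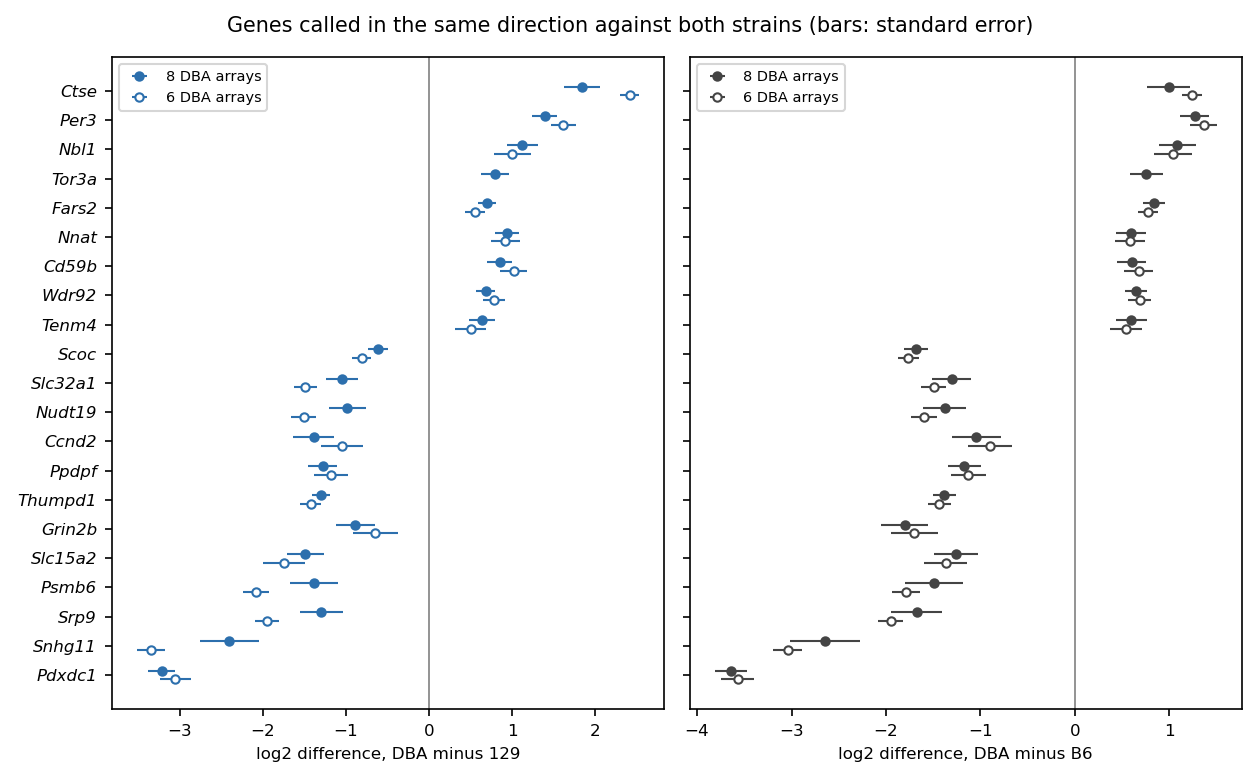
Log2 differences with their SE for the 9 genes above and the 12 genes furthest below both other strains, DBA minus 129 in one panel and DBA minus B6 in the other. Filled points use all 8 DBA arrays and open points the 6 without the DBA pair (Tor3a was not tested without it). Pdxdc1 lay furthest from 0, at -3.22 and -3.64, and Snhg11 moved furthest when the pair was left out, to -3.35 and -3.04.

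Among genes higher in DBA than in both strains were a lysosomal protease, a clock gene, a secreted growth factor antagonist and a mitochondrial tRNA synthetase. Ctse encodes cathepsin E, an aspartic protease of the endosomal and lysosomal system. Its intensity was 281.5, 632.5 and 895.2 in DBA, against 91.9, 148.6 and 197.9 in 129 and 224.8, 267.8 and 380.8 in B6. All 8 DBA arrays lay above all 129 arrays, while 2 of them, the pair at 287.3 and 281.5, lay within the B6 range. The other 6 DBA arrays, from 620 to 895.2, were above every array of both strains. The difference was 1.84 ± 0.22 against 129 (3.57-fold, adjusted p = 4.71e-06) and 0.99 ± 0.23 against B6 (1.99-fold, adjusted p = 0.01). Without the pair it was 2.41 and 1.24.

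Per3 encodes period 3, a member of the negative limb of the circadian clock. Per3 was at 182.5, 250.9 and 323.3 in DBA, against 54.5, 95.99 and 126.9 in 129 and 87.33, 97.64 and 117.2 in B6. Every DBA array was above every array of the other strains, in hippocampal fields and cortex alike. The difference was 1.39 ± 0.15 against 129 (2.62-fold, adjusted p = 1.25e-06) and 1.27 ± 0.15 against B6 (2.40-fold, adjusted p = 6.59e-06), and both were larger without the pair, at 1.62 and 1.36. Of the 13 tested genes of a circadian clock list, Per3 was the only one called higher and Bhlhe40, a transcriptional repressor within the clock network, the only one called lower, in each comparison. Bhlhe40 was at 121.4, 193.6 and 421.4 in DBA, against 155.6, 245.6 and 469.2 in 129 and 185.4, 371.2 and 671.8 in B6, with all 3 ranges overlapping. Its differences were -0.64 ± 0.16 (adjusted p = 0.017) and -0.64 ± 0.16 (adjusted p = 0.0226), and the calls were lost when any 1 of 3 arrays was left out against 129 and any 1 of 6 against B6. Without the pair they were -0.87 and -0.73, both called. The paralogues Per1 and Per2 were not called, with differences of 0.35 and 0.07 against 129 and 0.42 and 0.45 against B6, and Dbp, a clock output factor, was not called at 0.21 and 0.13. The list's median difference was 0.07 against 129 and 0.12 against B6. The labels give no time of day for the dissections.

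The RefSeq promoter of Per3 is shown because Per3 was the clock gene called higher than in both strains, and D-box elements, bound by Dbp and its relatives, are known parts of clock gene promoters. The stretch runs from 250 bases before to 50 bases into the gene in the mouse reference (GRCm38.p6, chr4:151044616-151044915, minus strand), so it is not the DBA sequence. Capitals mark the letters TTATGTAA.

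Per3: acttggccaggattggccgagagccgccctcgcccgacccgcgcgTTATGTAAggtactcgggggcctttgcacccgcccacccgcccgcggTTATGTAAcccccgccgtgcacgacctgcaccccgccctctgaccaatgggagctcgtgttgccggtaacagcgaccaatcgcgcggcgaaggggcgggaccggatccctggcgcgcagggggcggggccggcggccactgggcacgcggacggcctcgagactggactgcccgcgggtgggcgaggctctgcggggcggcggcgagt

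TTATGTAA was found 2 times on the strand shown and 0 times on the other strand, with no overlap. Of 32851 RefSeq promoters of the same length, 308 (0.938%) held it at least once on either strand and 7 (0.0213%) held 2 or more copies. This motif was picked after the sequence was read. The E-box letters CACGTG were not in the Per3 window and were in 7.15% of the promoters. Neither match says anything about binding in these tissues.

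Nbl1 encodes a secreted antagonist of bone morphogenetic proteins. Nbl1 was at 73.97, 118.5 and 140.5 in DBA, against 35.22, 60.48 and 70.84 in 129 and 25.89, 57.68 and 71.16 in B6. The DBA range lay just clear of both others, with differences of 1.12 ± 0.18 (adjusted p = 0.000407) and 1.08 ± 0.19 (adjusted p = 0.000848). Fars2, the mitochondrial phenylalanyl-tRNA synthetase, was at 187.5, 222.4 and 276.7 in DBA, against 113.1, 145.9 and 171.4 in 129 and 103.8, 124.9 and 158.5 in B6. Again no DBA array fell within either range, although the difference from 129 was 0.70 ± 0.11 with all arrays (adjusted p = 0.000247) and 0.55, under 1.5-fold, without the pair. Against B6 it was 0.84 ± 0.11 (adjusted p = 4.1e-05).

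Cd59b, a membrane-anchored inhibitor of complement, was at 74.1, 89.11 and 103.1 in DBA, against 32.28, 49.91 and 72.08 in 129 and 45.58, 57.11 and 59.79 in B6. Its ranges were likewise apart, at 0.85 ± 0.15 (adjusted p = 0.000709) and 0.60 ± 0.15 (adjusted p = 0.0219), and the call against B6 was lost without any 1 of 6 arrays. The near-identical neighbour Cd59a was called higher than in 129 as well (1.47, adjusted p = 0.00225), and how far the 2 probe sets read each other's transcript was not tested. Wdr92, a WD-repeat partner of a chaperone complex, was at 550.2, 905.6 and 1168 in DBA, against 384.4, 484.8 and 598.9 in 129 and 432.9, 637.9 and 725.9 in B6. Its lowest DBA arrays overlapped both strains, and the differences were 0.68 ± 0.11 (adjusted p = 0.000407) and 0.64 ± 0.12 (adjusted p = 0.0011). The second fell under 1.5-fold without DBA motor cortex replicate 1 (0.55) or B6 motor cortex replicate 2 (0.56).

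Of the other 3 genes above both strains, 1 was dim and 2 lost calls without the pair. Tor3a, an ATPase of the torsin family, was at 40.38, 57.04 and 81.07 in DBA, against 28.38, 38.02 and 50.85 in 129 and 24.89, 31.85 and 43.11 in B6. It differed by 0.79 ± 0.17 (adjusted p = 0.00578) and 0.76 ± 0.18 (adjusted p = 0.0125). With any single array left out, both calls held in the fits where Tor3a was still bright enough to be tested. Without the pair it was too dim to be tested, so its place among the tested genes rests on those 2 DBA arrays. Nnat, an imprinted gene for the small membrane protein neuronatin, ran from 172.9 to 5857 across the DBA dissections, and its call against B6 (0.59 ± 0.16, adjusted p = 0.0272) was lost without any 1 of 10 arrays and, at 0.58, without the pair. Tenm4, a teneurin involved in cell contact, differed by 0.63 ± 0.16 and 0.59 ± 0.16, and both calls were lost without the pair (0.50 and 0.54). Other probe sets of Tenm4 went the opposite way, at -0.30 and -0.48 against 129 and, for one of them, -0.14 against B6. None of these values was called.

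**Figure D2:**
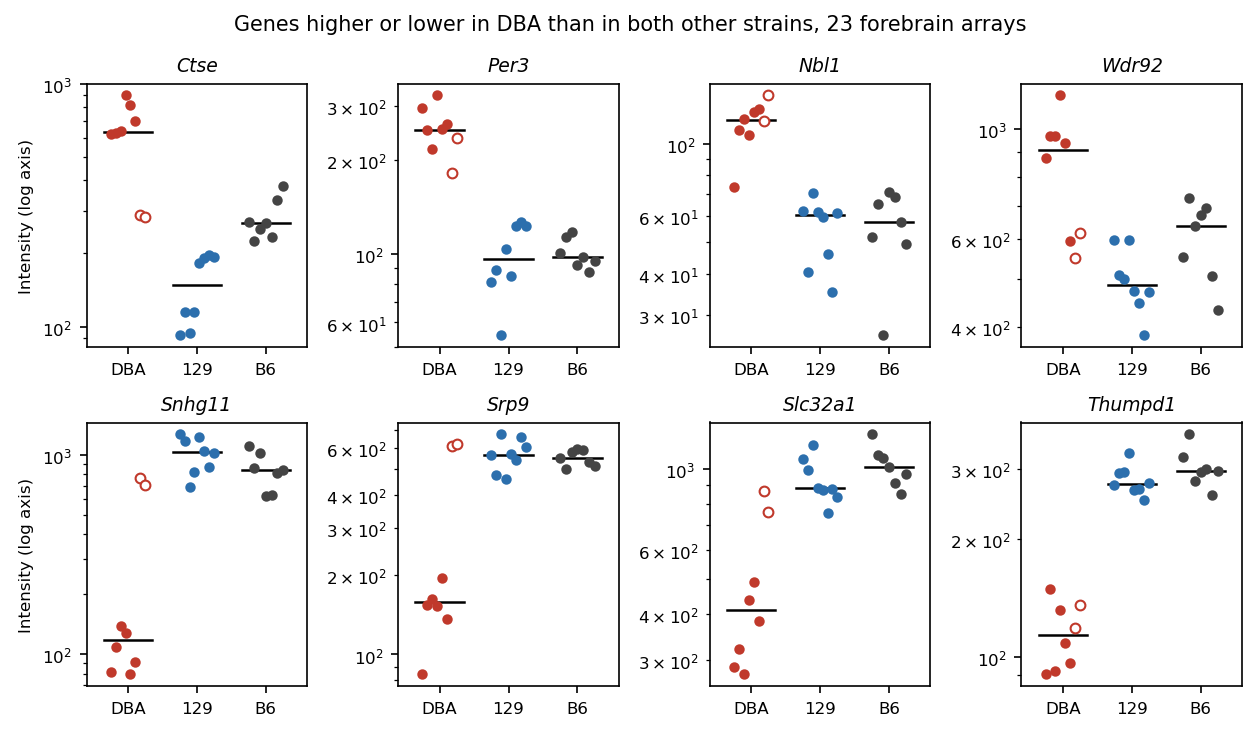
Intensity (log axis) in each DBA, 129 and B6 array for Ctse, Per3, Nbl1, Wdr92, Snhg11, Srp9, Slc32a1 and Thumpd1. Open circles are the pair of DBA arrays that share a code, filled circles the other arrays, and black lines the medians. Per3 and Nbl1 lie above and Thumpd1 below both strains in every DBA array, while the pair reaches the other strains' range for Ctse, Snhg11, Srp9 and Slc32a1.

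Genes lower in DBA than in both strains included a noncoding RNA gene and the transporter that loads GABA into vesicles. Also among them were a peptide transporter, an NMDA receptor subunit and parts of the signal recognition particle and the proteasome. Pdxdc1, which encodes a protein resembling pyridoxal-dependent decarboxylases, was furthest below. It was at 14.11, 24.28 and 44.95 in DBA, against 184, 231.5 and 311.8 in 129 and 282.5, 319.8 and 373.4 in B6. All 8 DBA arrays lay far below both strains, with differences of -3.22 ± 0.17 (adjusted p = 2.42e-12) and -3.64 ± 0.17 (adjusted p = 8.97e-13).

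The 3 probe sets of Pdxdc1 did not tell 1 story. The second was at 10.43, 16.73 and 72.71 in DBA, against 105, 125.8 and 148.4 in 129 and 120.3, 130.1 and 162.1 in B6, the same direction as the one used above. The third set was at 326.2, 357.7 and 404.5 in DBA, against 10.43, 10.43 and 12.44 in 129 and 10.43, 10.43 and 19.39 in B6. It was bright in every DBA array and at or near the floor in every other, a difference of 5.12 from 129 and 4.92 from B6. These probe sets therefore read strain differences in opposite directions, and whether they pair with different transcript forms or with sequence that differs between strains was not tested. Kcnj9, a G-protein-gated potassium channel subunit with a well-known expression difference between DBA and B6, likewise depended on the probe set. The probe set used for the gene gave 0.46 ± 0.29 and -0.05 ± 0.30 and no call. In the 23 arrays it was the dimmer set, with a mean log2 intensity of 6.75 against 8.20. The other set of Kcnj9 was at 292.4, 423.1 and 874.5 in DBA, against 194.5, 412.1 and 662.9 in 129 and 69.43, 89.94 and 255.8 in B6. On that set all DBA arrays were above all B6 arrays, with a difference of -0.05 from 129 and 2.03 from B6.

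**Figure D3:**
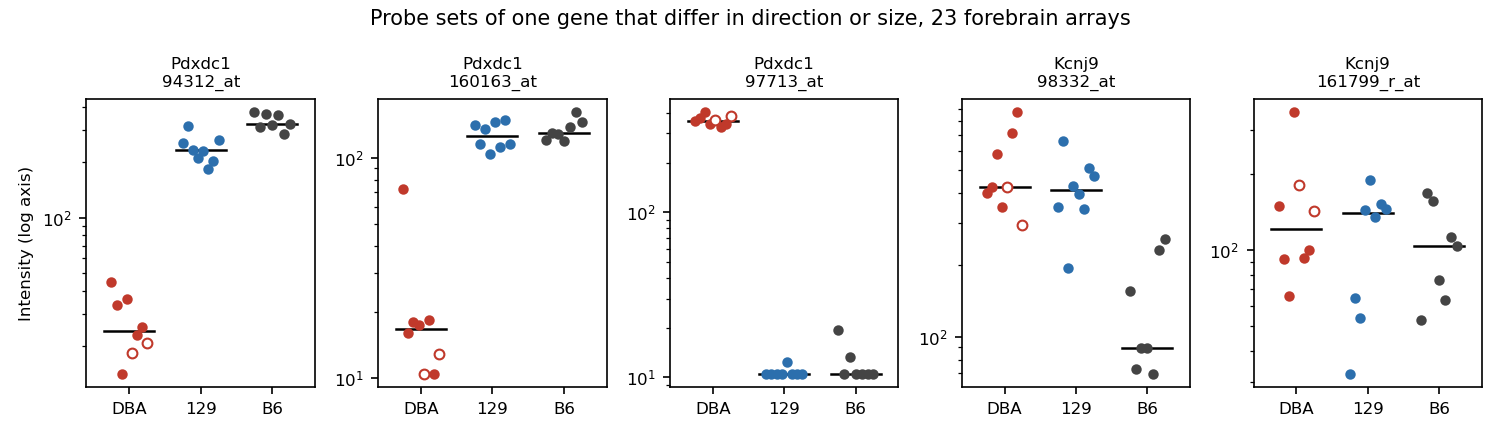
Intensity (log axis) in each DBA, 129 and B6 array for 3 probe sets of Pdxdc1 and 2 of Kcnj9. Symbols are as in the plot of genes apart from both strains. DBA is low on 2 probe sets of Pdxdc1 and high on the remaining one, and B6 is low on 1 of the 2 probe sets of Kcnj9, that with a difference from B6 of 2.03.

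Thumpd1, an RNA-binding adaptor for tRNA acetylation, was at 90.25, 113.5 and 149.1 in DBA, against 251.4, 275.8 and 329.7 in 129 and 258, 298 and 368.1 in B6. Its DBA arrays were all below every other array, with or without the pair. The differences were -1.30 ± 0.11 (adjusted p = 4.45e-08) and -1.38 ± 0.12 (adjusted p = 2.28e-08). Slc15a2, a transporter of small peptides, was at 19.94, 64.57 and 83.42 in DBA, against 127.2, 134.1 and 151.7 in 129 and 78.94, 98.05 and 146.2 in B6. The DBA range was clear of 129 and touched that of B6, with differences of -1.49 ± 0.22 (adjusted p = 0.00014) and -1.26 ± 0.23 (adjusted p = 0.00132). Ppdpf, named for roles in pancreatic development in zebrafish, was at 98.8, 136.3 and 202.4 in DBA, against 217.3, 348.9 and 485.1 in 129 and 170, 301.6 and 418.5 in B6, differences of -1.28 ± 0.17 and -1.17 ± 0.18.

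At 6 of the 12 genes furthest below, Scoc among them, the DBA pair was nearer to the other strains than the remaining DBA arrays were. Snhg11 is a noncoding gene that hosts small nucleolar RNAs and is transcribed in neurons. Snhg11 was at 79.17, 118.5 and 767.3 in DBA, against 692.1, 1035 and 1269 in 129 and 626.6, 843.2 and 1109 in B6. The 2 highest DBA values, 767.3 and 704.7, were those of the pair, and the other 6 did not exceed 138. Its differences were -2.40 ± 0.35 (adjusted p = 0.000115) and -2.64 ± 0.37 (adjusted p = 5.15e-05) with all arrays, and -3.35 and -3.04 without the pair.

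Slc32a1, the vesicular GABA transporter that marks inhibitory nerve endings, lies near Snhg11 in the gene order, and other genes may lie between them. It was at 273.5, 409.4 and 867 in DBA, against 754.9, 884.2 and 1164 in 129 and 853.9, 1011 and 1240 in B6, and the pair again held the high DBA values, 867 and 758.9. The differences of -1.04 ± 0.19 (adjusted p = 0.00158) and -1.31 ± 0.20 (adjusted p = 0.000193) became -1.49 and -1.49 without the pair. Srp9 encodes a subunit of the signal recognition particle, which targets secreted proteins to the endoplasmic reticulum. Srp9 was at 84.09, 157.5 and 620.4 in DBA, against 458.7, 566.8 and 674.8 in 129 and 498.2, 550.8 and 593.1 in B6. The pair, at 609.4 and 620.4, was as high as the other strains and the remaining 6 arrays were below them all, so that -1.30 ± 0.26 and -1.68 ± 0.27 became -1.95 and -1.95 without the pair.

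Psmb6, a catalytic subunit of the proteasome, was at 62.83, 130.6 and 472.8 in DBA, against 322.7, 447.3 and 615.7 in 129 and 354, 418.2 and 559.1 in B6. Its differences of -1.38 ± 0.29 and -1.49 ± 0.30 became -2.08 and -1.79 without the pair, whose arrays were at 472.8 and 297. Nudt19, a peroxisomal enzyme that cleaves coenzyme A, was at 57.97, 127.4 and 241.5 in DBA, against 178.3, 266.5 and 282.6 in 129 and 278.1, 325.1 and 368.9 in B6, with the pair at 226.2 and 241.5. Its differences were -0.98 ± 0.22 and -1.38 ± 0.23, and -1.51 and -1.60 without the pair.

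Ccnd2, a cyclin of the G1 phase, was at 12.66, 35.26 and 52.53 in DBA, against 56.48, 88.25 and 166.1 in 129 and 51.75, 66.91 and 120.2 in B6, differences of -1.39 ± 0.25 (adjusted p = 0.00107) and -1.04 ± 0.26 (adjusted p = 0.02). The second lost its call without B6 motor cortex replicate 1 (adjusted p = 0.0527). Scoc, a coiled-coil protein of the Golgi, was at 82.63, 109.1 and 185 in DBA, against 151, 200.5 and 220.6 in 129 and 277.2, 354.9 and 382.5 in B6. DBA was lowest, 129 between and B6 highest, with the pair at 133.3 and 185 and the other 6 DBA arrays at 82.63 to 118.8. The differences were -0.61 ± 0.12 (adjusted p = 0.00239) and -1.68 ± 0.12 (adjusted p = 2.97e-09). The difference from 129 was -0.81 without the pair, and under 1.5-fold without the DBA array labelled CA3 (-0.58), DBA entorhinal replicate 1 (-0.50) or 129 entorhinal replicate 2 (-0.56).

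Grin2b, the GluN2B subunit of the NMDA receptor, was dim on these arrays. It was at 17.84, 33.44 and 48.19 in DBA, against 34.04, 49.81 and 92.12 in 129 and 27.59, 95.98 and 138.7 in B6, with overlap in both comparisons. It was called lower than in B6 (-1.80 ± 0.25, adjusted p = 3.96e-05) and, barely, than in 129 (-0.89 ± 0.24, adjusted p = 0.0312). The call against 129 was lost without any 1 of 9 arrays and without the pair (-0.65, adjusted p = 0.191).

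Differences at the remaining 18 genes below both strains ran from -1.15 to -0.64 against 129 and from -1.31 to -0.59 against B6. They include the neighbouring peroxisomal thiolases Acaa1a (-1.15 and -1.10) and Acaa1b (-1.02 and -0.79), which are near-identical copies and are uncertain as separate results. Also among them were Immp1l, a peptidase of the mitochondrial inner membrane (-0.96 and -1.13), Ddx25, an RNA helicase best known from the testis (-0.90 and -1.31), and Msmo1, an enzyme of cholesterol synthesis (-0.75 and -0.87). These 5 genes were picked out after their values were seen.

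Apart from these 39 genes, 55 were called higher and 19 lower in DBA than in 129 without a matching call against B6. Of those 74 genes, 30 higher and 5 lower ones were also called between 129 and B6. Ankrd33b, which encodes an ankyrin repeat protein, showed the largest difference. It was at 69.76, 151.3 and 220.1 in DBA, against 10.43, 10.43 and 23.9 in 129 and 24.73, 135.7 and 223.8 in B6. Strain 129 was at or near the floor, with 5 of its 8 arrays on it, and the DBA and B6 ranges overlapped. The difference was 3.03 ± 0.35 against 129 (adjusted p = 2.94e-06) and 0.21 ± 0.36 against B6.

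Arcn1, the delta subunit of the COPI vesicle coat, was at 82.28, 151.3 and 165.6 in DBA, against 10.43, 18.2 and 44.92 in 129 and 104.8, 122.3 and 150.9 in B6, 2.50 ± 0.28 above 129 (adjusted p = 2.01e-06). Pla2g12a, a secreted phospholipase A2, was at 483, 555.8 and 669.7 in DBA, against 100.6, 123.4 and 168.8 in 129 and 374.3, 582.3 and 685 in B6, 2.18 ± 0.11 above 129 (adjusted p = 2.42e-12), although a second probe set gave -0.34. Strap, a WD-repeat protein that binds TGF-beta receptors and the SMN complex, was at 473.9, 585.8 and 662.7 in DBA, against 96.94, 139.9 and 231.2 in 129 and 561.9, 608 and 739 in B6, 1.92 ± 0.12 above 129 (adjusted p = 6.4e-11). In all of these genes DBA and B6 overlapped and 129 stood apart below. Stxbp2, a partner of syntaxins in vesicle fusion, was 2.32 ± 0.26 above 129 (adjusted p = 2.94e-06), while its other probe set gave 0.16.

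Gas5, another host gene of small nucleolar RNAs, lay between the other strains. It was at 150.7, 558.9 and 894.8 in DBA, against 101.1, 147.2 and 171.7 in 129 and 496.3, 1106 and 1686 in B6. The pair, at 152 and 150.7, lay within the 129 range, and the other 6 DBA arrays, at 429.8, 734.2 and 894.8, were all above it. The difference from 129 was 1.76 ± 0.30 (adjusted p = 0.000575) and 2.53 without the pair. Strn4, a striatin scaffold of a protein phosphatase complex, had a similar split, with the pair at 56.77 and 109.4 and the other 6 DBA arrays at 260.4 to 461.9. The 129 range was 53.76 to 95.28, so 1 array of the pair lay within it and 1 just above. The difference of Strn4 from 129 was 1.66 ± 0.30 and became 2.39 without the pair. AI506816, a locus with no stated role here, was 1.68 ± 0.22 above 129, and 2.10 without the pair.

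Fewer genes were lower than in 129 alone. Gdpd3, an enzyme that acts on lysophospholipids, was at 20.38, 29.58 and 55.39 in DBA, against 118.4, 140.1 and 167.1 in 129 and 16.67, 34.52 and 41.86 in B6. No DBA array reached the 129 range, DBA and B6 overlapped, and the difference was -1.96 ± 0.17 (adjusted p = 3.84e-08). Meg3, an imprinted noncoding RNA gene that is abundant in neurons, was at 1482, 1740 and 2056 in DBA, against 2123, 3460 and 4077 in 129 and 1777, 2385 and 3354 in B6. DBA was below 129 throughout, at -0.93 ± 0.13 (adjusted p = 4.76e-05), and -0.54 ± 0.13 against B6 was under 1.5-fold, while another probe set gave -0.08 against 129.

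Serpina3n, a protease inhibitor that reactive astrocytes make, was at 66.8, 229.2 and 513.7 in DBA, against 426.9, 573.4 and 1271 in 129 and 57.23, 185 and 412.1 in B6. The pair held the lowest DBA values (66.8 and 89.65). Its call of -1.39 ± 0.31 (adjusted p = 0.00774) was lost without DBA perirhinal replicate 1 (adjusted p = 0.0535), and without the pair the gene was not called against 129 (-0.78, adjusted p = 0.0886) and was called higher than in B6 (1.15). The remaining lower genes named by rank were Hbb-b2, a beta-globin (-1.28 ± 0.20), Ccl25, a chemokine (-1.26 ± 0.21), Celf1, a splicing regulator (-1.08 ± 0.20), Nr3c1, the glucocorticoid receptor (-0.94 ± 0.27), and Rasl11b, a small GTPase (-0.89 ± 0.17). Nr3c1, near the floor in DBA, lost its call without any 1 of 16 arrays.

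Against B6, 44 genes were called higher and 52 lower in DBA without a matching call against 129, and 15 and 21 of them were also called between 129 and B6. Pam encodes the enzyme that amidates the ends of neuropeptides. It was at 19.43, 308.6 and 370.9 in DBA, against 170.7, 429.3 and 487.3 in 129 and 25.55, 35.83 and 86.24 in B6. The pair, at 19.43 and 26.27, lay with B6 or below, and the other 6 DBA arrays, from 296.3 to 370.9, lay far above B6. The difference was 2.34 ± 0.59 (adjusted p = 0.0204) with all arrays and 2.95 (adjusted p = 6.85e-07) without the pair. Without any 1 of 4 arrays it was 2.11 to 2.22 and not called (adjusted p = 0.0551 to 0.0642).

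Cap1, an actin regulator, was at 82.19, 161.4 and 270.3 in DBA, against 97.28, 163.1 and 214.4 in 129 and 13.64, 30.57 and 39.51 in B6, 2.29 ± 0.23 above B6 (adjusted p = 4.42e-07). Ocel1, a protein with an occludin-related domain, was at 157.9, 172.4 and 196.1 in DBA, against 184.3, 195.1 and 237.8 in 129 and 26.95, 40.25 and 75.46 in B6, 2.06 ± 0.17 above B6 (adjusted p = 1.27e-08). Gnb1, the main beta subunit of heterotrimeric G proteins, was at 1887, 2237 and 2343 in DBA, against 1683, 2290 and 2890 in 129 and 570.8, 796.6 and 1140 in B6, 1.37 ± 0.11 above B6 (adjusted p = 8.3e-09). In these 3 genes B6 was the strain apart, below every DBA and 129 array, and 2 further probe sets of Gnb1 gave 2.41 and 1.94 against B6. Bcat2, which starts the breakdown of branched-chain amino acids, was 1.21 ± 0.13 above B6 (adjusted p = 5.37e-07). Pfn1, an actin-binding profilin (1.56 ± 0.41), and C1ql1, a synaptic organiser of climbing fibre contacts (1.34 ± 0.38), were also called higher, but lost the call without any 1 of 6 and 9 arrays, and C1ql1 was too dim to be tested without the pair.

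Alad, the second enzyme of heme synthesis, was ordered DBA, 129, B6 without overlap. It was at 332.8, 389.8 and 426.2 in DBA, against 203.8, 258.4 and 291.2 in 129 and 98.1, 141 and 165.6 in B6. The difference was 1.46 ± 0.11 against B6 (adjusted p = 3.66e-09) and 0.58 ± 0.11 against 129 (adjusted p = 0.00119), which at 1.4965-fold was just under the threshold of 1.5-fold. Without the pair it was called against 129 as well (0.61, adjusted p = 0.006), as it was with the title code as a random block (0.60, adjusted p = 0.00288).

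Snhg6, also a host gene of small nucleolar RNAs, had the largest difference from B6 alone. It was at 29.54, 47.7 and 82.17 in DBA, against 33.26, 47.61 and 63.26 in 129 and 281.4, 518.7 and 756.8 in B6. Every DBA and 129 array was below every B6 array, and the difference was -3.51 ± 0.20 (11.4-fold lower, adjusted p = 1.45e-11). The probe set annotated to Mir686 was at 113, 133.2 and 196.3 in DBA, against 99.48, 123.4 and 201.5 in 129 and 642.2, 714.6 and 797.2 in B6, -2.32 ± 0.12 (adjusted p = 3.69e-12); it reads a longer transcript, and the mature miRNA was not measured. Pttg1, securin, which keeps sister chromatids from separating before anaphase, was at 55.68, 79.7 and 107.2 in DBA, against 36.94, 69.79 and 129.6 in 129 and 264.4, 338.5 and 371.3 in B6, -2.20 ± 0.19 (adjusted p = 2.79e-08). Spg21, the endosomal protein maspardin, gave -1.67 ± 0.17, Smndc1, a splicing factor, -1.26 ± 0.12, and Itfg1, a membrane protein with integrin-like repeats, -1.31 ± 0.18, although its other probe set gave -0.24. For these genes too, DBA and 129 overlapped and B6 lay clear above DBA. Sorl1, a sorting receptor for the amyloid precursor (-1.71 ± 0.30), and Rps4l, a ribosomal protein gene copy (-1.25 ± 0.22), were called lower with overlapping ranges. Without the pair, Sorl1 (-1.41), Itfg1 (-0.68) and Rps4l (-0.74) were called lower than in 129 too.

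**Figure D4:**
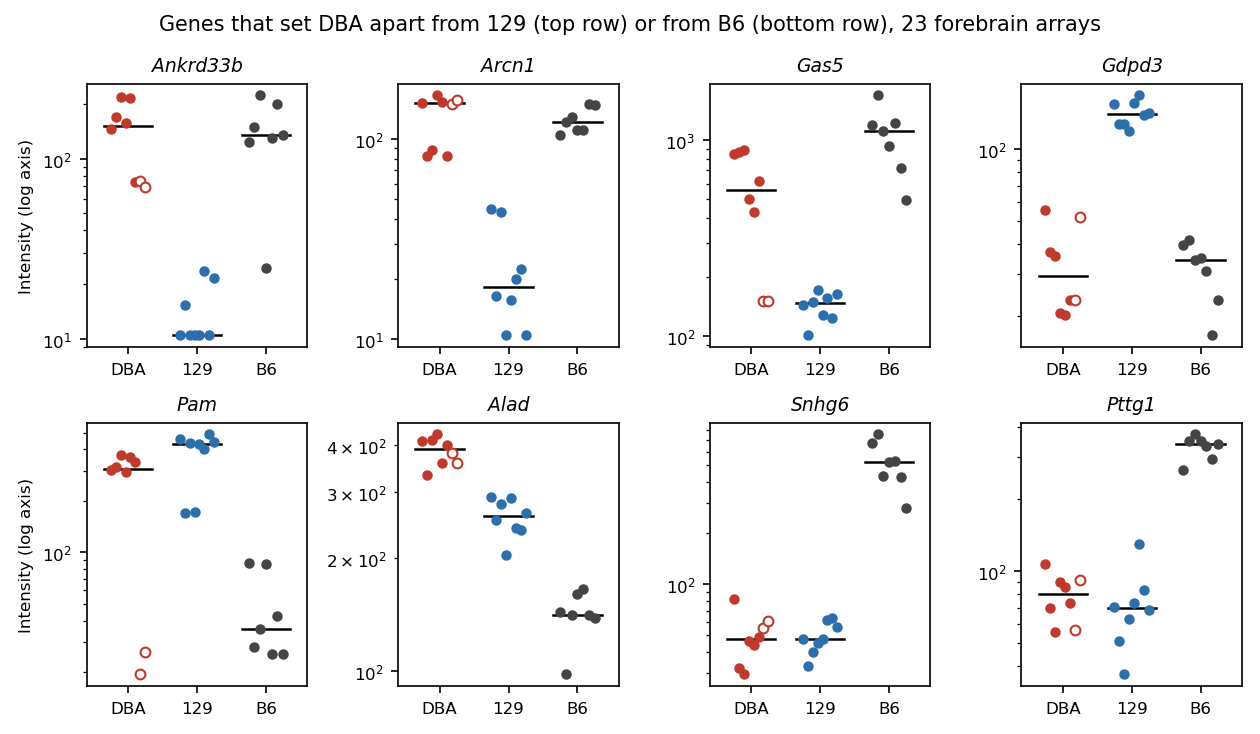
Intensity (log axis) in each DBA, 129 and B6 array for Ankrd33b, Arcn1, Gas5 and Gdpd3 (top row, called against 129) and Pam, Alad, Snhg6 and Pttg1 (bottom row, called against B6). Symbols are as in the plot of genes apart from both strains. The pair of DBA arrays (open) lies with 129 for Gas5 and with B6 for Pam.

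Ranges over all arrays, with no allowance for tissue, did not overlap at 49 genes between DBA and 129 (0.917%) and at 93 between DBA and B6 (1.74%).

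Among genes with alleles known to differ between laboratory strains, 11 of the 17 on the arrays were tested. Against 129, 0 were called higher and 1 lower (Hbb-b2). Against B6, 3 were called higher (Pam, Alad and Glo1) and 1 lower (Myo5a), where 2.12% and 2.53% of all tested genes were called. The list was drawn up from such knowledge, so its calls are no independent evidence, and its medians were -0.10 and 0.13. Glo1, glyoxalase 1, lies in a copy number variable segment and is known for links to anxiety-like behaviour. It was at 846.1, 895 and 1064 in DBA, against 705.9, 794.2 and 1243 in 129 and 367.1, 470.8 and 604.2 in B6, 1.07 ± 0.11 above B6 (adjusted p = 5.12e-07), with B6 clear below. Myo5a, the myosin behind the dilute coat colour, was at 52.21, 79.37 and 99.56 in DBA, against 66.35, 83.09 and 115 in 129 and 69.98, 110.2 and 210 in B6, with overlap throughout and a difference from B6 of -0.75 ± 0.14 (adjusted p = 0.00133). Gabra2 (-0.62 ± 0.33 and 0.31 ± 0.35), Nnt (-0.19 ± 0.19 and 0.07 ± 0.20), Mpdz (0.24 ± 0.18 and -0.54 ± 0.19), Ide and Cyb5r3 were not called. The B6 arrays coded JD2 were above the other B6 arrays at Gabra2 (314.8 and 533.6 against 49.6 to 137.1). At Nnt they were too (191.5 and 219.5 against 70.89 to 88.91). The differences of Gabra2 and Nnt from B6 average over that split. For Mpdz, a scaffold protein linked to alcohol withdrawal seizures, the pair was at 238.1 and 194.2 and the other 6 DBA arrays at 64.43 to 128.7, and without the pair it was called lower than in B6 (-0.73, adjusted p = 0.000219) and was at -0.20 against 129. Tyrp1, Hc, Klrd1, Ahr, Ltf and Apoa2 were too dim in these tissues to be tested.

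DBA carries another haplotype of the major histocompatibility complex than 129 and B6, and 13 of 23 genes of that system on the arrays were tested. None was called against 129, where 2.12% of all tested genes were. Against B6, where 2.53% were, B2m was called lower and H2-Ke6, a dehydrogenase gene inside the complex, higher. The medians were 0.18 and 0.22. B2m, the light chain shared by class I molecules, is encoded outside the complex and was at 243.2, 335.7 and 435.9 in DBA, against 283.2, 351.4 and 395.8 in 129 and 590.9, 657.7 and 742 in B6. B6 was clear above both others, a difference of -0.97 ± 0.10 (adjusted p = 2.52e-07). H2-Ke6 gave 0.66 ± 0.17 (adjusted p = 0.0268) and lost its call without any 1 of 7 arrays.

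The classical class I genes are near-identical, differ in sequence between haplotypes and are uncertain on these probes. H2-K1 was at 158.6, 425 and 495.3 in DBA, against 252, 295.3 and 350.6 in 129 and 250.8, 361 and 404.3 in B6, with the pair at 158.6 and 223.3. It was not called with all arrays, and without the pair it was called against 129 (0.69). H2-D1 was not called on its brightest probe set (-0.16 and -0.14), while another was at 67.27, 373.4 and 513.6 in DBA, against 96.02, 110.5 and 202.7 in 129 and 122, 156.7 and 180.8 in B6, 1.07 and 1.21. H2-Q4, H2-Q10, H2-DMa, H2-DMb1, Cd74, Tap1, Tap2, Tapbp and Psmb8 were tested and not called. The class II genes H2-Aa, H2-Ab1, H2-Ea, H2-Eb1 and H2-Ob had medians near the floor in all 3 strains. H2-Q1, H2-T24, H2-M3, H2-Oa and Psmb9 were not tested either.

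The transmission and stress lists are set beside the 2.12% of all genes called against 129 and 2.53% against B6. Of 5 tested GABA-A receptor subunits none was called against 129 and 1 lower against B6: Gabrb2, at 15.17, 44.28 and 115.5 in DBA, against 23.54, 68.77 and 111.4 in 129 and 31.81, 48.67 and 249.3 in B6, -1.15 ± 0.28 (adjusted p = 0.0181), a call lost without any 1 of 5 arrays. Of 9 ionotropic glutamate receptor subunits, Grin2b was called lower against both strains and Gria1, a subunit of AMPA receptors, higher against B6 (0.68 ± 0.18, adjusted p = 0.031). The Gria1 call was lost without any 1 of 6 arrays, and another probe set gave -0.63. Of 24 synaptic vesicle genes 1 was called, against 129: Syt4, a synaptotagmin, at 47.28, 97.15 and 107.6 in DBA, against 29.99, 40.09 and 62.23 in 129 and 85.1, 103.9 and 125.9 in B6, 1.04 ± 0.19 (adjusted p = 0.0011).

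Of 43 genes of the respiratory chain 1 was called, also against 129: Cox6c, a subunit of cytochrome c oxidase, at 2512, 2694 and 3097 in DBA, against 1446, 1808 and 2022 in 129 and 2363, 3094 and 3782 in B6, 0.66 ± 0.09 (adjusted p = 6.33e-05), with 129 clear below DBA. Without the pair the difference was 0.56, under 1.5-fold. Of 25 glutathione and detoxification genes, Ephx1, microsomal epoxide hydrolase, was called lower than in B6 (-1.13 ± 0.32, adjusted p = 0.042), and the call was lost without any 1 of 12 arrays. No member was called in either comparison among 22 potassium channel genes, 15 genes of ethanol and opioid response, 15 immediate early genes, 14 heat shock genes and chaperones and 4 interferon response genes. The median differences of all these lists, from GABA-A receptors to interferon response, lay between -0.17 and 0.21, against 0.01 and 0.02 over all tested genes.

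Markers of other cell types moved with strain in part. All 6 tested myelin markers were lower in DBA on average in both comparisons, with medians of -0.58 and -0.81. Mag, a myelin adhesion molecule, was called against both (-1.09 ± 0.31, adjusted p = 0.0476, and -1.18 ± 0.32, adjusted p = 0.035) and Mal, a myelin proteolipid, against B6 (-0.81 ± 0.22, adjusted p = 0.035). These calls were lost without any 1 of 15, 7 and 6 arrays, and those of Mag against 129 (-0.88, adjusted p = 0.138) and Mal (-0.74, adjusted p = 0.0527) without the pair. Summed myelin marker intensity was 1250, 3512 and 5036 in DBA, against 1932, 3169 and 6616 in 129 and 4270, 5936 and 8777 in B6. In the hippocampal fields all DBA sums, 3615, 5036 and 3714, were below all B6 sums, 5266 to 8777, and overlapped those of 129, 2603 to 6616. In motor cortex the DBA sums of 4471 and 3410 overlapped those of B6, 4270 and 5936. In entorhinal and perirhinal cortex the DBA sums, 1250 to 1814, were below all 129 sums, 1932 to 3735.

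Of 3 red blood cell markers on the arrays, only 1, Hba-a1, was tested. The sum of the 3 was 794.8, 1303 and 2147 in DBA, against 2387, 2868 and 4219 in 129 and 1323, 2336 and 3657 in B6, with DBA clear below 129. Hba-a1 made up most of that sum, at 766.5, 1256 and 2105 in DBA and 2306, 2810 and 4144 in 129. The sum and Hba-a1 are therefore 1 result. Hba-a1, an alpha-globin, differed by -1.04 ± 0.20 (adjusted p = 0.00225) and -0.84 ± 0.21 (adjusted p = 0.0204), the second call being lost without DBA CA1 replicate 1 or 2 or B6 motor cortex replicate 1 (adjusted p = 0.0552, 0.0541 and 0.0693). Hbb-b2 was called in the same direction against 129. Choroid plexus markers summed to 246.4, 566.8 and 904.9 in DBA, against 626.3, 964.6 and 3584 in 129 and 235.3, 622.5 and 4704 in B6. Their highest sums came from 1 CA3 array of 129 and 1 of B6, in which Ttr was at 2419 and 3328, and 0 of 3 tested choroid plexus markers were called.

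Single markers were called without their lists. Glul, the astrocyte glutamine synthetase, was at 397.6, 605.2 and 753.6 in DBA, against 575.3, 736.7 and 1042 in 129 and 915.9, 1089 and 1350 in B6, -0.90 ± 0.14 against B6 (adjusted p = 0.000283), the only one called of 8 astrocyte markers, and another probe set gave 0.27. Without the pair Glul was called against 129 too (-0.66). Most astrocyte markers went the other way. Of the 8, 6 were higher in DBA on average in each comparison, with medians of 0.09 and 0.14. Without the pair Mt3, another marker of that list, was called higher than in both strains (0.67 and 0.60). C1qb, a complement protein of microglia, gave -0.97 ± 0.11 against B6 (adjusted p = 2.81e-06), the only one of 8 microglial markers, and another probe set gave 0.25. Man1a (-0.75 ± 0.18), of 3 CA1 markers, and Calb2 (0.68 ± 0.19), of 6 thalamic ones, were called against 129 and lost the call, Man1a without DBA perirhinal replicate 1 (adjusted p = 0.0514) and Calb2 without any 1 of 15 arrays or the pair (0.61, adjusted p = 0.152). Endothelial, dentate gyrus, CA3, cortical and striatal markers had no call. The part of cell makeup and dissection in the strain differences was not tested.

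Whether a strain difference varied with the region was tested with an interaction term. For DBA minus 129, hippocampal fields against entorhinal and perirhinal cortex, 1 of 5316 genes was called (0.0188%), and 406 had an unadjusted p-value under 0.05. For DBA minus B6, hippocampal fields against motor cortex, 0 of 5163 genes were called by limma (0%), and 228 had an unadjusted p-value under 0.05. Ap2b1, the beta subunit of the clathrin adaptor AP-2, was the gene called. In DBA it was at 45.5 and 42.7 in CA1 and 39.1 in the array labelled CA3, but 351 and 294 in entorhinal and 310 in perirhinal cortex. In 129 it was at 121 and 139 in CA1, 185 and 206 in CA3, 249 and 158 in entorhinal and 278 and 304 in perirhinal cortex. All 3 hippocampal DBA arrays were below all 129 arrays, whereas the cortical arrays overlapped. The difference from 129 was -1.86 ± 0.21 in the hippocampal fields and 0.46 ± 0.21 in cortex, an interaction of -2.32 ± 0.29 (adjusted p = 0.00571). The call was lost without the pair, which holds 2 of the 3 DBA cortical arrays in this test. Without DBA entorhinal replicate 1, which leaves only the pair as DBA cortex, 33 genes were called, and over the other single arrays left out the count was 1 to 5, the 5 without CA3 replicate 2 of 129.

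The next genes by p-value were not called: Gabra2, a GABA-A receptor subunit (-1.52 in hippocampal fields and 0.28 in cortex, adjusted p = 0.0775 for the interaction), and Rps28, a ribosomal protein (interaction -0.95, adjusted p = 0.0775). Without the pair, Rps28 was called lower over all tissues against both strains (-0.76 and -0.62). Against B6 the lowest adjusted p was 0.433, shared by Slc32a1 (interaction -0.89), 6330403K07Rik (1.10) and Slc15a2 (-1.66).

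The series holds body tissues of the same strains, 10 tissues with 1 array each per strain, which the forebrain comparison did not use. There, 105 of 6679 genes were called between DBA and 129 (1.57%), 61 higher (0.913%) and 44 lower (0.659%). Between DBA and B6, 118 were called (1.77%), 43 higher (0.644%) and 75 lower (1.12%). Of the 61 genes higher than 129 in forebrain that were tested in the body, 34 (55.7%) were called higher there, and 17 of 47 lower ones (36.2%) were called lower. Against B6 it was 14 of 50 higher genes (28%) and 23 of 74 lower ones (31.1%). No gene was called in the opposite direction, in either comparison. Of the genes apart from both strains, 1 of 9 above and 10 of 28 tested below were called against both in the body too. Since whether the source mice were the same animals is not stated, these arrays are another set of tissues and may not be another set of mice.

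Per3 was the gene above both in forebrain and body, at 1.25 against 129 (adjusted p = 1.11e-05, higher in 10 of 10 tissues) and 0.68 against B6 (adjusted p = 0.0322, higher in 9 of 10). Pdxdc1 was lower by -2.86 and -3.40 and Thumpd1 by -1.71 and -1.63, each in 10 of 10 tissues. The body arrays also cover the strains AJ and C3H. Mean log2 intensity of Pdxdc1 in the body was 5.09 in DBA, against 7.95 in 129, 8.49 in B6 and 7.80 in AJ, while C3H was at 5.02, near DBA. Thumpd1 was at 6.21 in DBA, against 7.92 in 129, 7.84 in B6, 6.18 in AJ and 6.66 in C3H, so that AJ and C3H lay nearer to DBA.

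Ctse was 2.45 above 129 in the body (adjusted p = 7.63e-07) and not called against B6 there (0.54, adjusted p = 0.404). Srp9 was lower by -1.22 and -0.96 and Ppdpf by -0.93 and -0.82, all called. Among genes apart from 1 strain, Arcn1 (3.09), Pla2g12a (2.50), Strap (1.71) and Gas5 (1.98) were again higher and Gdpd3 (-3.40) lower than in 129. Pam (2.22), Cap1 (2.69), Ocel1 (1.56), Alad (1.62) and Glo1 (1.43) were higher and Snhg6 (-3.53), Mir686 (-2.61), Spg21 (-1.83), Pttg1 (-1.53) and Smndc1 (-1.06) lower than in B6. Nbl1 (0.02 and -0.38), Fars2 (-0.01 and 0.15), Slc15a2 (-0.39 and -0.56), Grin2b (-0.08 and 0.12) and Itfg1 (-0.19 against B6) were not called in the body. Snhg11 and Slc32a1 were too dim there to be tested.

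The class II gene H2-Ea, which is near the floor in forebrain, was called in the body at 3.83 against 129 (adjusted p = 0.000242) and 3.92 against B6 (adjusted p = 0.000185). Its body mean was 7.31 in DBA, against 3.48 in 129, 3.38 in B6, 3.98 in AJ and 5.21 in C3H on the log2 scale. The b haplotype of B6 and 129 is known to lack a working H2-Ea gene.

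**Figure D5:**
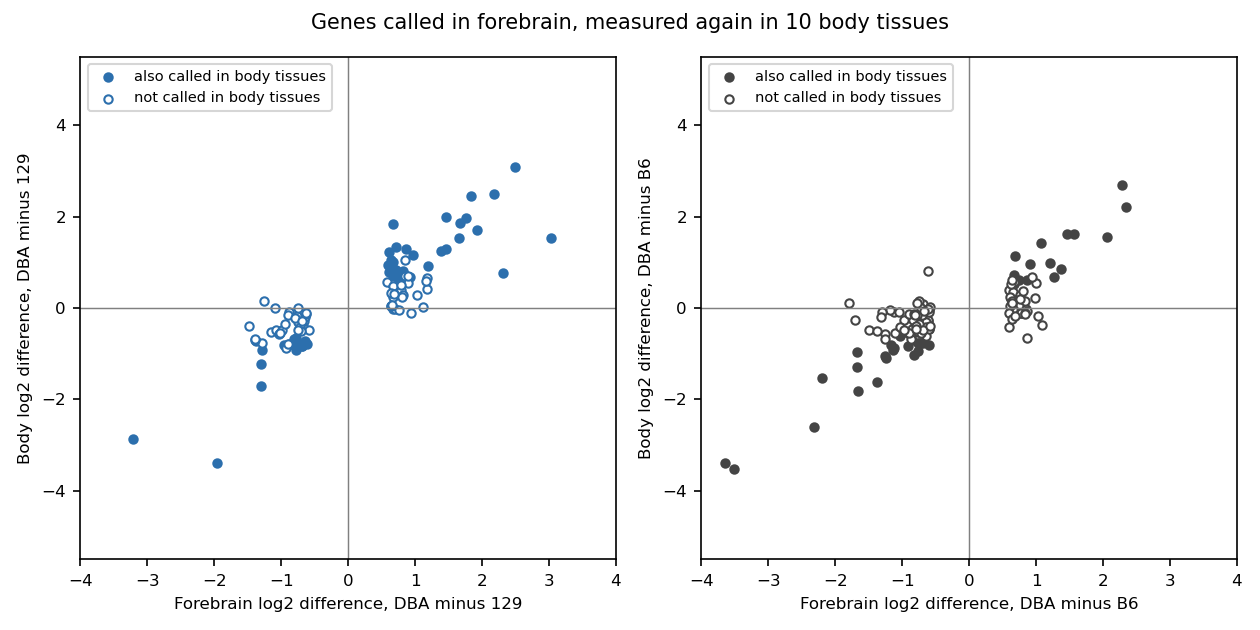
Forebrain difference (x axis, log2) against body difference (y axis, log2) for genes called in forebrain and tested in the body, DBA minus 129 in one panel (108 genes, 51 also called in the body) and DBA minus B6 in the other (124 genes, 37 also called). No gene was called in opposite directions in either panel.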

How the data were processed

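Total RNA was labelled with biotin and hybridised to one-colour arrays, per the labels' protocols. The authors deposited 1 linear intensity per probe set and array, 12488 probe sets in 150 arrays, with 5.97% of values below 0; no source used here states the software, background correction or scaling. Of the probe sets, 66 were controls, 10833 had 1 symbol, 396 several and 1193 none in the platform annotation, which gave 8251 genes, 8237 of them matched by Entrez ID. Values were floored at 10.43 and put on the log2 scale, with no further scaling. A gene was tested where the mean of its strain means passed 5.737 (log2), the median of all values, in at least 1 tissue. limma 3.58.1 in R 4.3.3 fitted tissue and strain with a trended variance, with Benjamini-Hochberg adjustment over the 5342 genes. Tables and plots used Python 3.11.15, pandas 2.3.3 and matplotlib 3.10.9.

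Tested on simulated data (5342 genes, 100 changed at each size), the fit recovered 94 genes at a log2 change of 1 and 99 at 2 for DBA minus 129, and 88 and 99 for DBA minus B6, with 3 false calls in each. The simulated spread was drawn independently for each array, with no group like the DBA pair. Real arrays of 1 title code were correlated (consensus correlation 0.374), so these counts are no error rate for these data. The number of arrays limits the precision, and the arrays hold no read depth. Replicate numbers name arrays within a group, in accession order, and pair nothing. Titles with B6 or BL6 were read as 1 strain.

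Named genes were the 12 highest and 12 lowest of those called against both strains, the 8 highest and 8 lowest of those called against 1 strain, up to 4 called members per list, all members of the strain allele and histocompatibility lists, and the first 3 of each interaction. Members and lists were chosen with earlier results of these data known. Alternatives changed the floor, the filter, the scaling, the arrays, the tissues, the probe set, an RNA quality covariate and a block for the title code. Promoters are RefSeq's (GRCm38.p6). The 2 arrays with identical values were not analysed here.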

Additional observations from a re-analysis of the deposited data

Results flagged for a closer look

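Ap2b1 was the only gene whose difference between DBA and 129 was called as varying with region. The hippocampal difference minus the cortical one was -2.32 ± 0.29 (adjusted p = 0.00571), with all 3 hippocampal DBA arrays below all 129 arrays. The call was lost without the DBA pair, which is most of the DBA cortex in this test, and with no filter on dim genes. The hippocampal DBA arrays include the one labelled CA3, whose markers went against its label.

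In 15 of 213 sets of arrays (71 named genes in 3 strains), the highest or lowest array stood off from the rest by a gap that was a larger share of the range than Dixon's limit, after tissue was taken out. Chance gives such a gap in about 1 in 20 sets. In DBA they were Ccnd2, lowest in the perirhinal array (0.618), Ankrd33b, highest in the array labelled CA3 (0.584), and Hbb-b2, lowest in CA1 replicate 2 (0.658). In 129 they were Ppdpf and Calb2, lowest in CA3 replicate 2 (0.6429 and 0.6251), and, in perirhinal replicate 1, Nudt19, lowest (0.613), and Celf1, highest (0.564). B6 CA1 replicate 2 had 4: Grin2b and Alad, lowest (0.6251 and 0.6818), and Strap and Smndc1, highest (0.685 and 0.649). B6 CA1 replicate 1 was highest for Psmb6 (0.591) and lowest for Arcn1 (0.662). B6 CA3 replicate 1 was lowest for Ankrd33b (0.579), and B6 CA3 replicate 2 for Itfg1 (0.6001). The DBA pair shares its shift at Snhg11, Srp9, Slc32a1, Gas5 and Pam between 2 arrays, so a test for a single outlying array does not pick it out.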

How the results depend on the processing

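The counts of called genes moved most with which arrays were used. Without the DBA pair (chosen after seeing the data), 175 genes were called against 129 in place of 113, 63 apart from both strains in place of 39, and 0 in the interaction with 129 in place of 1. Without the 3 cortical tissues, 71 were called against 129 and 85 against B6 in place of 135. Without CA1 and CA3, 16 were apart from both. These fits also have fewer arrays. Leaving out each array in turn gave 103 to 144 genes against 129, 108 to 167 against B6, 85 to 113 against the mean of both, 31 to 47 apart from both, 1 to 33 for the interaction with 129 and 0 to 1 for that with B6, the 33 without DBA entorhinal replicate 1. The interaction with 129 gave 5 genes under quantile normalization and 0 with no filter on dim genes, and that with B6 gave 1 with no filter; the cause was not tested.

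Of 95 calls of named genes, 94 and 90 remained with the floor at the 10th and 40th percentile, 91 with quantile normalization, 75 with no filter, 95 with the Gapdh ratio as a covariate, 85 with the title code as a random block (consensus correlation 0.374) and 85 without the arrays coded JD2. With only 2 strains in the fit 80 of 91 remained, without CA1 and CA3 59 of 93, without the cortical tissues 55 of 86, and without the pair 82 of 92. With any 1 array left out, 69 of 95 held in each fit where the gene was still tested. None of these reversed. Another probe set of the same gene gave the opposite sign for Tenm4 (-0.30 and -0.48 against 129, -0.14 against B6), Pdxdc1 (5.12 and 4.92), Pla2g12a (-0.34), Gria1 (-0.63), Glul (0.27) and C1qb (0.25). Of these, only the values of Pdxdc1 were called, and the others had adjusted p-values of 0.103 to 0.788 in limma. For H2-D1 (1.07 and 1.21) and Kcnj9 (2.03) another probe set was called, with the opposite sign to an uncalled value. With every probe set tested on its own, 151 were called against 129, 187 against B6 and 52 apart from both. The difference from the mean of both strains has no value with only 2 strains in the fit. No paired analysis was possible because replicate numbers follow accession order and mark no shared animal. Genes near the floor have only a lower bound on their differences.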

Other observations

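With the 6 DBA arrays other than the pair, 63 genes were called apart from both strains, a set chosen after values were seen. Among those not in the 39 were H2-K2, a class I histocompatibility gene (1.07 against 129 and 1.05 against B6), and Lst1, a leukocyte transcript of the same complex (1.81 and 1.33). Others were Mt3, a metallothionein of the astrocyte marker list (0.67 and 0.60), and Scg5, the chaperone of prohormone convertase PC2 (0.69 and 0.78). All of these were higher in DBA. Phlda1, an inducible pleckstrin-homology protein (-1.51 and -1.28), and Slc6a15, a neuronal transporter of neutral amino acids (-0.84 and -0.83), were lower.

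Among the B6 arrays, CA1 replicate 1 and CA3 replicate 1, whose title code starts with JD2, stood apart at Nnt and Gabra2, genes with known defects in the C57BL/6J substrain. Nnt, the mitochondrial transhydrogenase, was at 191.5 and 219.5 in these 2 arrays, against 70.89 to 88.91 in the other 5 B6 arrays. Gabra2 was at 314.8 and 533.6 in them, against 49.6 to 137.1 in the other 5. The labels name no substrain. In DBA, Nnt was at 80.93, 96.1 and 119.7 and Gabra2 at 55.72, 170.5 and 402.5 (lowest, median and highest).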
